A study of Mus musculus with 8 samples.

Results

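The genes described here encode the nuclear subunits and assembly factors of mitochondrial complex I. They are all protein-coding genes whose symbol starts with Nduf, 46 genes among 44674 gene identifiers in the table, of which 21420 carry a protein-coding annotation. Of these 46 genes, 38 have a subunit name and 8 are Ndufaf assembly factors. By role, the 38 comprise 7 nuclear core subunits, 9 accessory subunits of the peripheral arm, 19 accessory subunits of the membrane arm, the acyl carrier protein Ndufab1, and Ndufa4 with its paralog Ndufa4l2. Ndufb1 and Ndufb1-ps, also listed for the membrane arm, matched no identifier, so these 19 are not the full list. Ndufa4 was named as a complex I gene and is now counted as a complex IV subunit. A further 4 Nduf identifiers annotated as pseudogenes were left out. The 46 genes lie on 17 chromosomes (GRCm38), with at most 6 on one, chromosome 17. Ndufaf4, to which several results below return, lies on chromosome 4 from 24898083 to 24905001, and Ndufb8 on chromosome 19 from 44548572 to 44555440.

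Complex I (NADH:ubiquinone oxidoreductase) is the entry point of electrons from NADH into the mitochondrial respiratory chain. It is L-shaped: the peripheral arm in the matrix holds the NADH-oxidising flavoprotein, a chain of iron-sulfur clusters and the quinone-reducing site, and the membrane arm pumps protons. A core inherited from bacteria carries out catalysis, part of it encoded in the nucleus and part in mitochondrial DNA (the mt-Nd genes). Accessory subunits surround this core, and assembly factors join the modules and then leave. In brown adipose tissue (BAT), the proton gradient that the chain builds is spent as heat through UCP1, so the tissue is rich in mitochondria and in respiratory chain mRNA.

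BAT was taken from 8 male mice at the end of a hyperinsulinemic-euglycemic clamp, after a high-fat diet (HFD) from week 4 to week 18 of age. The 4 mice labelled Sert-Ox1R (Ox1RΔSERT mice) were Ox1R fl/fl and Sert-Cre tg/wt, so that the orexin receptor 1 gene (Hcrtr1) is recombined in cells that express the serotonin transporter. The 4 mice labelled CTRL were Ox1R fl/fl and Sert-Cre wt/wt, so the floxed allele was present in both groups, and Cre only in one. The deletion is aimed at serotonergic neurons and not at BAT, and Hcrtr1 itself was at or near the limit that a count of 0 allows: its normalized values lay between 0 and 0.159 in the 8 mice, against a floor of 3 counts at 0.0592 to 0.0951. Hcrtr1 mRNA in BAT therefore did not check the labels.

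Total estimated counts ranged from 35852700 to 50063300 per mouse. Values are given as CPM after TMM scaling, called normalized values below, and in the order of control mice 10684, 11253, 11560 and 11563 and then Ox1RΔSERT mice 11243, 11601, 11613 and 11708. The Ox1RΔSERT mice 11601 and 11708 stood apart from the other 6 over all genes: the first principal component of all genes, with 52.2% of the variance, placed them at 61.6 and 80.5, with the others between -47.5 and 8.62. Brown and general adipocyte markers were abundant in all 8 libraries, with summed normalized values of 4641 to 8946 for 10 brown adipocyte markers and of 7715 to 11700 for 7 adipocyte markers. Leukocyte and macrophage markers summed to 163 to 356 in the control mice and to 264, 1079, 298 and 824 in the Ox1RΔSERT mice.

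Nuclear genes of the respiratory chain are known to share promoter elements, among them the binding letters of NRF1, of the ETS factor GABP, of the estrogen-related receptors (ERR) and of YY1. The RefSeq promoter table (GRCm38.p6, 250 bases before to 50 after the start of each gene) matched 40 of the 46 genes, with 42 promoters. On either strand, the letters CGCATGCG (NRF1) stood in 9.52% of these 42 promoters and in 1.87% of all 32851, CCGGAAG (ETS) in 14.3% and 8.86%, AAGGTCA (ERR) in 7.14% and 4.72%, and AAGATGGCG (YY1) in 14.3% and 1.4%. None of these 4 strings is contained in another. For each string, the promoter of the gene with the lowest p in the comparison of the groups is shown, with the matching letters in capitals. The NRF1 letters are in the promoter of Ndufaf4, chr4:24897833-24898132, plus strand, and also in those of Ndufa8, Ndufa11 and Ndufaf5. The ERR letters are in that of Ndufb2, chr6:39592315-39592614, plus strand, and in those of Ndufb4 and Ndufs5. The YY1 letters are in that of Ndufs4, chr13:114388045-114388344, minus strand, and in those of Ndufa9, Ndufaf8, Ndufc1, Ndufs6 and Ndufs7. The ETS letters are in that of Ndufaf1, chr2:119662785-119663084, minus strand, and in those of Ndufaf8, Ndufb6, Ndufb7, Ndufs3 and Ndufs8. A match describes these letters and does not show that a factor binds there.
Ndufaf4: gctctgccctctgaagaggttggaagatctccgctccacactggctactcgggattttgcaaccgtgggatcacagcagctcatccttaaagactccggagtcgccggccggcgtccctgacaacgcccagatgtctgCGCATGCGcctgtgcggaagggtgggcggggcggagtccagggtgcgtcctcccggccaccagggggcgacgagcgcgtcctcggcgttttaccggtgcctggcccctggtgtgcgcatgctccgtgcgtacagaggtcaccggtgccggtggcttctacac
Ndufb2: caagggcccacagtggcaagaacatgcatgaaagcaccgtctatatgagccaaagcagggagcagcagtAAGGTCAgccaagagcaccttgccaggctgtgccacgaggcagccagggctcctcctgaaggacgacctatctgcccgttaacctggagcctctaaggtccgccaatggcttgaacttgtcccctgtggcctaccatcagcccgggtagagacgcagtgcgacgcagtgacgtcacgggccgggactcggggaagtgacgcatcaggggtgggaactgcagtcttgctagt
Ndufs4: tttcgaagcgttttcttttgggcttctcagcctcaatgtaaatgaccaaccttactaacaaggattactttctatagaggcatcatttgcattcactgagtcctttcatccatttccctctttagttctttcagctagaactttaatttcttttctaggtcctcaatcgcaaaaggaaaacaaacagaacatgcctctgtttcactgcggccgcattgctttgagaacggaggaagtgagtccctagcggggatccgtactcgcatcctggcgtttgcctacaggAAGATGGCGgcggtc
Ndufaf1: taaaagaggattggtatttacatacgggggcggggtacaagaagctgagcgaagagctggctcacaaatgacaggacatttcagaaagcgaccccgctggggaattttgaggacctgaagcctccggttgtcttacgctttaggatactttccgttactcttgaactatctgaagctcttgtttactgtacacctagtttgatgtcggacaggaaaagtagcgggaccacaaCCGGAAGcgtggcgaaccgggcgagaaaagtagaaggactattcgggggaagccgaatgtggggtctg

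The level of each gene was compared in TPM, which divides by transcript length, as means of the 4 control mice. Ndufa4 was the highest at 1708 TPM, followed by Ndufab1 at 889.8 TPM and Ndufa3 at 841 TPM. Leaving out Ndufa4 and Ndufa4l2, the 36 subunit genes had a median of 314 TPM, from 28.03 TPM for Ndufa11 to that of Ndufab1, and 28 of the 36 lay between 100 and 500 TPM. Ndufs1 was the lowest of the 7 core subunits, at 224 TPM. The 8 assembly factors formed a lower class, with a median of 15.2 TPM, from 10.5 TPM for Ndufaf7 to 45.6 TPM for Ndufaf8. Most subunits are built into the complex as single copies, and assembly factors act in passing. The mRNA levels of the groups of genes overlapped only in Ndufa11 and the 2 highest assembly factors, Ndufaf8 and Ndufaf4 (36.3 TPM), apart from Ndufa4l2. Ndufa4l2, the paralog of Ndufa4 known as a hypoxia-induced gene, was the lowest of all, at 3.73 TPM.

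**Figure D1:**
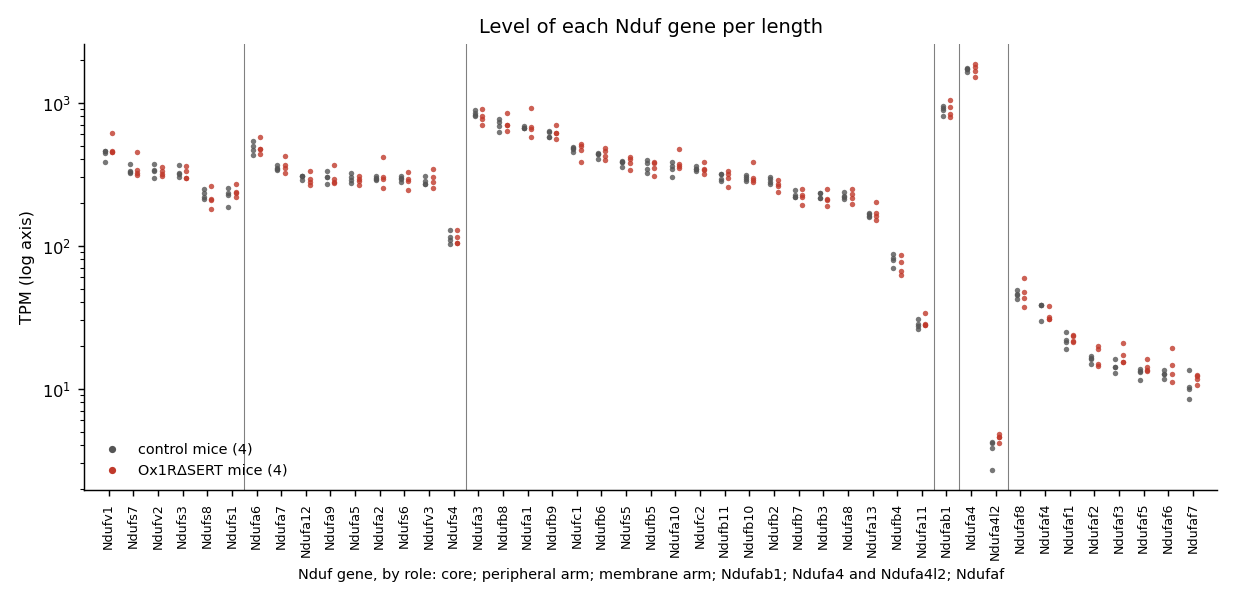
TPM (log axis) of 45 of the 46 Nduf genes in each of the 4 control mice (grey) and 4 Ox1RΔSERT mice (red), ordered by role and, within a role, by level in control mice. Most subunit genes lie between 100 and 500 TPM, the Ndufaf genes between 10.5 and 45.6 TPM in control means, and Ndufa4 and Ndufa4l2 at the extremes.

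The question of the comparison was whether loss of the orexin receptor 1 in serotonergic neurons was accompanied by other mRNA levels of complex I in BAT of mice on HFD. With TMM scaling all 46 genes had a lower fitted value in Ox1RΔSERT mice, whereas on TPM 28 of the 46 had a higher one. With TMM scaling the log2 fold changes ran from -0.47 for Ndufaf4 to -0.00 for Ndufa4l2 with a median of -0.27, beside 0.00 over all 14489 genes tested, of which 49.6% had a negative one. On TPM their median was 0.02, while that of all genes was 0.23 with a pseudocount of 1 and 0.32 with 0.1, so that 44 and 46 of the 46 lay below it. With library size alone as the scale, 37 of 46 were negative and all 46 were below the all-gene median of 0.22. The directions given here are therefore relative to the other genes of the same library.

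No Nduf gene passed the test. By edgeR's quasi-likelihood test with Benjamini-Hochberg adjustment, 0 of 46 were called at an adjusted p of 0.05, and 0 of all 14489 genes (0.0%), with a lowest adjusted p of 0.316. DESeq2 called 0 of 46 as well, with a lowest adjusted p of 0.0586 for Ndufaf4, and 265 of 15119 genes with an adjusted p (1.75%). Limma-trend on log2 TPM called 0. DESeq2 without mouse 11243, a setting added after the values were seen, called 12 of 46 as lower (26.1%, against 2.06% of all genes), among them Ndufaf4, Ndufb4, Ndufv2 and Ndufa4; with any other mouse left out it called 0. At an unadjusted p under 0.05, edgeR had 14 of 46 lower (30.4%) and 0 higher, against 4.96% lower and 10.2% higher of all genes. In 9 of 46 (19.6%) every Ox1RΔSERT mouse was below every control mouse, against 2.81% of all genes, and in 0 every one was above, against 2.69%.

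The difference was not spread evenly over the 4 Ox1RΔSERT mice. In mice 11601 and 11708, 45 of 46 genes were below all 4 control mice, and the exception in both was Ndufa4l2. In mouse 11613, 25 were below all control mice and 9 above, and in mouse 11243, 12 were below and 4 above. No share of all genes is given beside these counts per mouse, so they are not set against other genes. The median of the 46 log2 ratios to the control mean was -0.49 in mouse 11601, -0.65 in mouse 11708, -0.10 in mouse 11613 and -0.01 in mouse 11243. In the 4 control mice it was 0.02, 0.03, 0.02 and -0.06. Mice 11601 and 11708 were the 2 lowest of the 8 in 42 of the 46 genes, and mouse 11708 the lowest in 40. The coefficient of variation had a median of 4.52% among the control mice and of 21.2% among the Ox1RΔSERT mice, and was larger in the latter for 44 of 46 genes. Without mice 11601 and 11708, 31 of 46 log2 fold changes were negative, with a median of -0.05. The median of all genes was -0.012 in that fit, and 30 of the 46 lay below it. In it 1 gene, Ndufaf4, was lower at an unadjusted p under 0.05 (2.17%, against 1.2% of all genes).

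**Figure D2:**
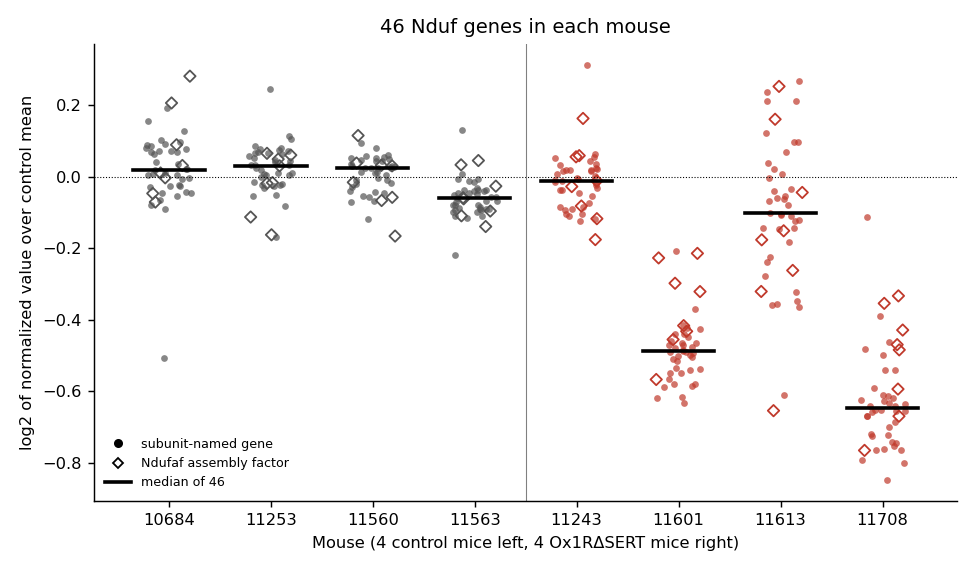
log2 of the normalized value over the mean of the 4 control mice, for each of the 46 Nduf genes (filled points, subunit-named genes; open diamonds, Ndufaf assembly factors) in each mouse, with the median as a bar. The bars of Ox1RΔSERT mice 11601 and 11708 are at -0.49 and -0.65, and those of the other 6 mice between -0.10 and 0.03.

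Mice 11601 and 11708 were also those with the highest sums of the leukocyte and macrophage markers, at 448% and 342% of the control mean. Of these 10 markers, 9 were higher and 0 lower at an unadjusted p under 0.05. The 7 adipocyte markers summed to 76.8% and 71.7% of the control mean in these 2 mice and to 96.0% and 101% in mice 11243 and 11613, against 90.03% to 109% in the control mice. The 10 brown adipocyte markers summed to 58.3% and 57.5% in mice 11601 and 11708 and to 88.7% and 83.6% in mice 11243 and 11613. Their range in the control mice was 85.3% to 111%. Scaling to the brown adipocyte markers was not run. The summed Nduf value was 98.9%, 70.7%, 95.6% and 65.7% of the control mean in mice 11243, 11601, 11613 and 11708. Each was a higher percentage than that of the brown adipocyte markers in the same mouse. Divided by the adipocyte marker sum of the same mouse, the summed value of the 46 Nduf genes was 102%, 91.6%, 94.2% and 91.1% of the control mean in the 4 Ox1RΔSERT mice and 92.9% to 107% in the control mice, so that mice 11601 and 11708 were then below the lowest control mouse by a small margin and the other 2 lay within the control range. On that scale, chosen after the values were seen, 38 of 46 genes had a lower and 8 a higher mean in Ox1RΔSERT mice, with a median log2 ratio of -0.08. The share of all counts in mitochondrially encoded genes ranged from 40.0% to 46.8% among control mice and stood at 44.6%, 33.6%, 34.0% and 36.2% among Ox1RΔSERT mice. The Nduf genes took 1.82% to 1.91% of the counts of nuclear genes in control mice, against 1.88%, 1.46%, 1.79% and 1.36% in Ox1RΔSERT mice. The part of the marker differences in the Nduf values was not tested. In bulk tissue, fewer cells of a type and less RNA per cell cannot be told apart.

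The 7 nuclear core subunits hold the cofactors and most of the quinone site in the peripheral arm. Ndufv1 binds NADH and the flavin, and Ndufv2 holds an iron-sulfur cluster beside it. Ndufv2 had 442, 412, 413 and 397 in control mice, against 401, 309, 325 and 268 in Ox1RΔSERT mice. The 3 lowest of these were below all control mice and mouse 11243 was inside their range (log2 fold change -0.35, SE 0.13, unadjusted p = 0.0241, adjusted p = 0.316). Ndufv1 had 895, 869, 929 and 906 against 935, 645, 1043 and 654, so mice 11243 and 11613 were above every control mouse and the other 2 far below (-0.14, SE 0.17, adjusted p = 0.711). Whether these 2 genes differed in response was not tested.

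Ndufs1, the largest iron-sulfur subunit, had 747, 619, 726 and 689 in control mice, against 690.3, 505, 639 and 531 in Ox1RΔSERT mice, with mice 11601 and 11708 below the controls (-0.23, SE 0.13, adjusted p = 0.401). Ndufs3, a subunit of the quinone module, had 384, 354, 339 and 330.4 against 326, 243, 319 and 223, and was the one core subunit whose groups did not overlap (-0.34, SE 0.14, unadjusted p = 0.0402, adjusted p = 0.323). The margin between the lowest control mouse and mouse 11243 was small in Ndufs3.

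Ndufs7 and Ndufs8 hold the last iron-sulfur clusters before quinone. Ndufs7 had 227, 213, 202 and 205 in control mice, against 208, 151, 249 and 137 in Ox1RΔSERT mice, with mouse 11613 above all controls (-0.18, SE 0.18, adjusted p = 0.634). Ndufs8 had 267, 256, 255 and 238 against 233, 164, 254 and 146, with 3 of 4 Ox1RΔSERT mice below all controls and mouse 11613 within their range (-0.35, SE 0.18, adjusted p = 0.365). The 7 core genes had a median log2 fold change of -0.27, and 2 of 7 were lower at an unadjusted p under 0.05.

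Accessory subunits of the peripheral arm hold no cofactor of the catalytic chain, but several are needed to assemble or stabilise it. Of the 9, 3 were lower at an unadjusted p under 0.05 (Ndufa5, Ndufs4 and Ndufa12), and their median was -0.31. Ndufa5, an accessory subunit of the quinone module, had 156, 152, 142 and 145 in control mice, against 141.5, 99.2, 119 and 88.3 in Ox1RΔSERT mice, without overlap but with mouse 11243 next to the lowest control mouse (-0.41, SE 0.14, unadjusted p = 0.0197, adjusted p = 0.316). Ndufs4, whose loss in mice is a standard model of Leigh syndrome, had 208, 196, 197 and 182 against 185, 138, 166 and 129.9 (-0.34, SE 0.12, unadjusted p = 0.0236, adjusted p = 0.316). Its groups overlapped in mouse 11243. Ndufa12, added to the arm at a late step of assembly, had 182, 198, 193 and 189.8 against 179.9, 129, 173 and 121, without overlap (-0.34, SE 0.14, unadjusted p = 0.0388, adjusted p = 0.321). The other 6 (Ndufa2, Ndufa6, Ndufa7, Ndufa9, Ndufs6 and Ndufv3) had log2 fold changes from -0.17 to -0.32 and adjusted p-values from 0.359 to 0.688.

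Among the 19 accessory subunits of the membrane arm, 6 were lower at an unadjusted p under 0.05 (Ndufb2, Ndufb3, Ndufb4, Ndufb5, Ndufc1 and Ndufc2), with a median of -0.27 over the 19. The Ndufb proteins among them sit in the distal part of the arm. Ndufb2 had 105, 106, 105 and 96.9 in control mice, against 95.1, 73.3, 81.1 and 57.3 in Ox1RΔSERT mice. All 4 were below the lowest control mouse, mouse 11243 by little (-0.43, SE 0.14, unadjusted p = 0.0158, adjusted p = 0.316). Its promoter is the one shown above with the ERR letters. Ndufb3 had 169, 181, 178 and 162.1 against 162.0, 112, 152 and 103 (-0.38, SE 0.15, unadjusted p = 0.0340, adjusted p = 0.317). The groups did not overlap, yet mouse 11243 and control mouse 11563 were nearly equal.

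Ndufb5 had 280.4, 269, 275 and 248 in control mice, against 262, 194, 221 and 167 in Ox1RΔSERT mice (-0.35, SE 0.14, unadjusted p = 0.0348, adjusted p = 0.317). Ndufb4 had 75.2, 63.8, 67.1 and 63.9 against 66.0, 49.7, 44.2 and 39.0 (-0.44, SE 0.16, unadjusted p = 0.0209, adjusted p = 0.316). Both had mouse 11243 inside the control range and the other 3 below it. The value of Ndufb4 is uncertain, because 390 bases of its transcript are identical to the pseudogene Ndufb4c, which was given 67.6% to 74.4% of the summed normalized value of the pair. The log2 ratio of the group means was -0.44 for Ndufb4 alone and -0.37 for the sum. Of the other genes with a near-identical stretch in another gene (11 of 46 with Ndufb4), the copy held at most 0.475% of the pair where it was in the table.

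Ndufb8, the subunit whose protein is widely used to gauge complex I on blots, had 524, 508, 554 and 491 in control mice, against 518, 348, 533 and 329 in Ox1RΔSERT mice. Mice 11243 and 11613 were in the middle of the control range and the other 2 far below it (-0.27, SE 0.17, adjusted p = 0.468). An exact permutation test over the 70 assignments of the mice, two-sided, gave p = 0.286 for Ndufb8, where the smallest p possible is 0.0286. Ndufa3, a small subunit at the heel of the membrane arm, had 203, 211, 195 and 194 against 187, 131, 190.1 and 118, without overlap (-0.36, SE 0.16, unadjusted p = 0.0549, adjusted p = 0.336). The other members of the membrane arm ranged from -0.20 for Ndufa1 to -0.36 for Ndufc1.

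Ndufc1 and Ndufc2, whose proteins lie side by side in the membrane arm, had like values over the mice. Ndufc1 had 123, 132, 126 and 119 in control mice, against 127, 91.7, 97.6 and 73.7 in Ox1RΔSERT mice (-0.36, SE 0.15, unadjusted p = 0.0437, adjusted p = 0.325). Ndufc2 had 174, 182, 168 and 169 against 175, 134.1, 134.6 and 110.1 (-0.32, SE 0.14, unadjusted p = 0.0417, adjusted p = 0.324). In both, mouse 11243 lay inside the control range and mouse 11613 near mouse 11601. Ndufb10, Ndufa1 and Ndufa13 had the opposite placing of mouse 11613. Ndufa1, a small subunit encoded on the X chromosome, had 148, 171, 161 and 152 against 160, 110.3, 183 and 95.7, so that mouse 11613 was above every control mouse (-0.20, SE 0.20, adjusted p = 0.625).

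**Figure D3:**
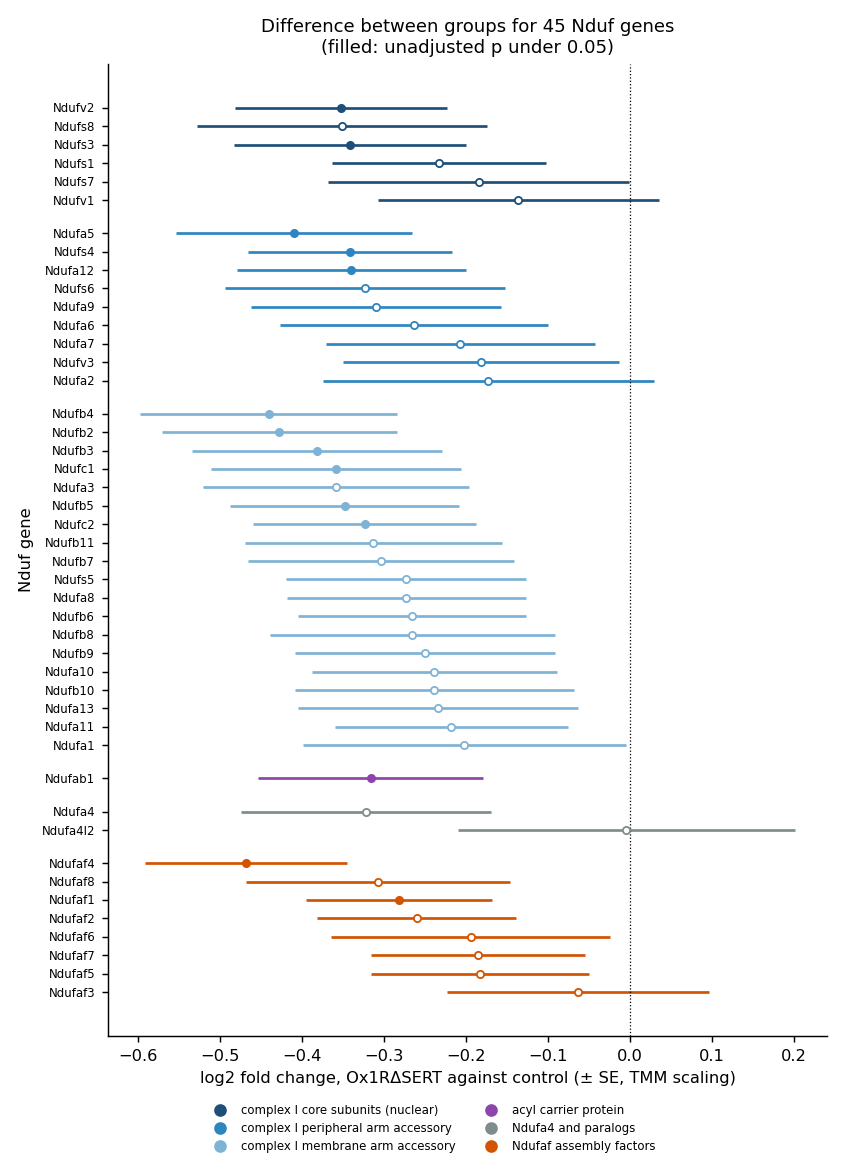
log2 fold change of 45 of the 46 Nduf genes, Ox1RΔSERT against control mice (n = 4 each), with its SE, TMM-scaled and grouped by role; filled points have an unadjusted p under 0.05. All 45 points are at or left of 0 under this scaling, most of them turn positive on TPM, and none passed the adjusted threshold.

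Ndufab1, the mitochondrial acyl carrier protein, is bound to complex I at 2 sites and also serves fatty acid synthesis and iron-sulfur cluster assembly. It had 401, 385, 415 and 398 in control mice, against 372, 287, 371 and 254 in Ox1RΔSERT mice, all below the lowest control mouse (-0.32, SE 0.14, unadjusted p = 0.0477, adjusted p = 0.328). Ndufa4 had 603, 657, 633 and 598 against 627, 449.6, 533 and 383, with 3 of 4 mice below the controls (-0.32, SE 0.15, adjusted p = 0.348). Ndufa4l2 had 2.48, 4.19, 3.59 and 3.87 against 4.39, 3.06, 3.37 and 3.27, with full overlap (-0.00, SE 0.21, adjusted p = 0.995). It rested on few counts, at least 95 in each mouse, and its sign relative to the median of all genes turned under 8 of the alternatives run.

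The 8 Ndufaf genes include the member with the lowest p. Ndufaf4, which together with Ndufaf3 assembles the quinone module, had 79.2, 75.6, 88.6 and 83.7 in control mice, against 72.4, 60.6, 52.0 and 51.4 in Ox1RΔSERT mice. All 4 were below the lowest control mouse, by 27.7% on the group means (81.8 ± 5.61 against 59.1 ± 9.82, SD, n = 4 each; log2 fold change -0.47, SE 0.12). The unadjusted p was 0.00436 and the adjusted p 0.316 by edgeR, and the adjusted p 0.0586 by DESeq2. In Ndufaf4, Ndufaf5 and Ndufb4, but in no other Nduf gene, mouse 11613 was lower than mouse 11601. Without mice 11601 and 11708 its log2 fold change was -0.39 (unadjusted p = 0.0356, adjusted p = 0.996 by edgeR).

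Ndufaf3, the partner of Ndufaf4, did not follow it. It had 17.7, 16.0, 13.6 and 13.9 in control mice, against 15.9, 12.4, 18.2 and 11.97 in Ox1RΔSERT mice, with mouse 11613 above all controls (-0.06, SE 0.16, adjusted p = 0.870). The difference between the partners was not tested. Ndufaf1, a factor of membrane arm assembly, had 37.9, 35.2, 36.4 and 33.0 against 35.3, 26.7, 29.7 and 25.5 (-0.28, SE 0.11, unadjusted p = 0.0359, adjusted p = 0.319). Mouse 11243 was within the control range and the others below it.

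Ndufaf2, a paralog of Ndufa12 that holds its place until a late step, had 12.8, 13.1, 13.1 and 12.3 in control mice, against 11.8, 10.9, 11.5 and 8.47 in Ox1RΔSERT mice. Its groups did not overlap, as was the case for Ndufa12 (-0.26, SE 0.12, adjusted p = 0.345). Ndufaf5 modifies an arginine of Ndufs7 and Ndufaf8 binds Ndufaf5. Ndufaf5 had 16.6, 17.2, 17.9 and 18.0 against 19.5, 15.01, 13.9 and 12.9, with 1 mouse above and 3 below all controls (-0.18, SE 0.13, adjusted p = 0.510). Ndufaf8 had 15.04, 15.6, 14.8 and 14.3 against 14.1, 10.9, 14.5 and 8.78 (-0.31, SE 0.16, adjusted p = 0.376). In Ndufaf8, mouse 11613 was inside the control range.

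Ndufaf7 is an arginine methyltransferase of complex I assembly, and Ndufaf6 acts early in assembly. Ndufaf7 had 35.5, 26.1, 27.9 and 27.3 in control mice, against 30.4, 23.4, 25.8 and 23.2 in Ox1RΔSERT mice (-0.18, SE 0.13, adjusted p = 0.499). Ndufaf6 had 10.3, 10.4, 9.69 and 9.90 against 9.89, 6.80, 11.3 and 7.28 (-0.19, SE 0.17, adjusted p = 0.582). The median log2 fold change was -0.23 over the 8 assembly factors and -0.29 over the 38 subunit genes.

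**Figure D4:**
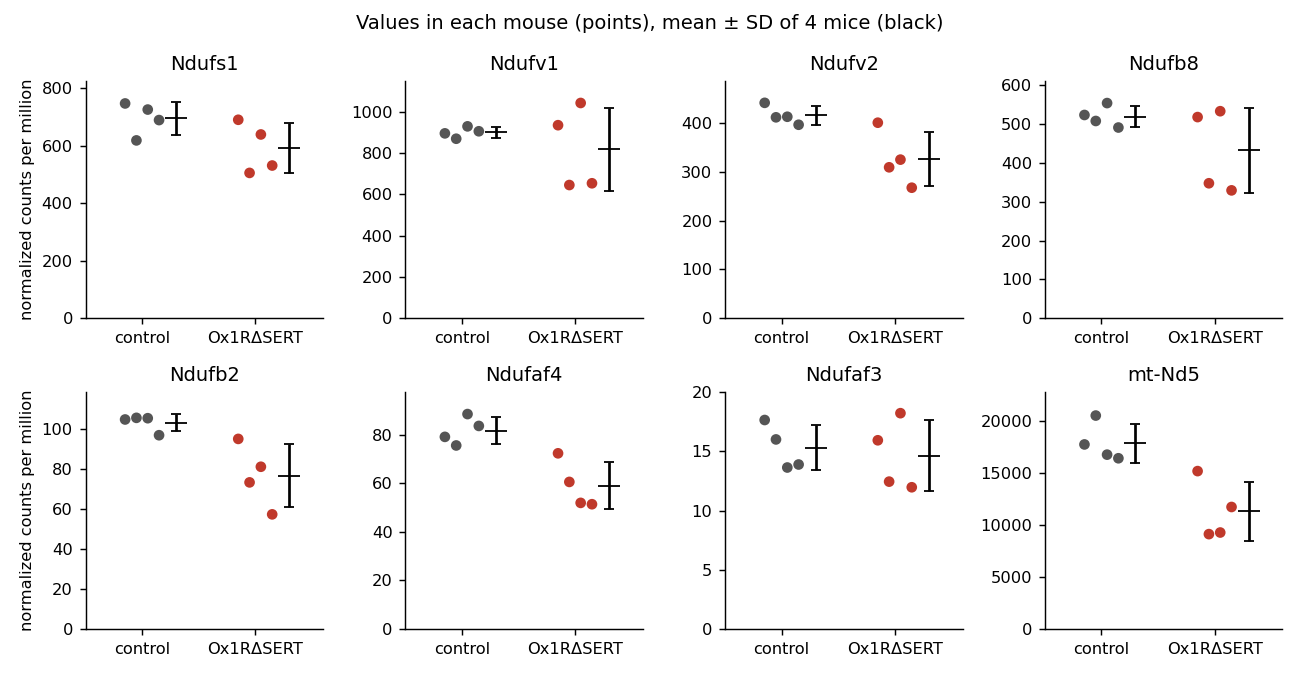
Normalized values (CPM after TMM scaling) in each mouse for 5 subunit genes (Ndufs1, Ndufv1, Ndufv2, Ndufb8, Ndufb2), 2 assembly factors (Ndufaf4, Ndufaf3) and the mitochondrially encoded mt-Nd5, with mean ± SD of 4 mice per group. In Ndufs1, Ndufv1, Ndufb8 and Ndufaf3 a pair of Ox1RΔSERT mice lies near or above the controls and a pair below, while in Ndufb2, Ndufaf4 and mt-Nd5 all 4 lie below.

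On TPM, which also counts the mitochondrially encoded transcripts in its total, the group means lay close together. Ndufaf4 had 36.3 ± 4.55 TPM in control mice and 32.7 ± 3.42 TPM in Ox1RΔSERT mice (SD, n = 4 each), and Ndufb2 had 286 ± 14.0 and 263 ± 20.9 TPM. Ndufv1 had 435.5 ± 34.2 and 492 ± 77.2 TPM, and Ndufb8 702 ± 60.6 and 719.9 ± 93.2 TPM. For Ndufaf4 and Ndufb2 the direction was that of the TMM-scaled values, and for Ndufv1 and Ndufb8 it was the opposite one, and limma-trend on log2 TPM called none of the 4.

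Mouse 11613 divided the Nduf genes most. Its log2 ratio to the control mean ran from -0.65 for Ndufaf4 and -0.61 for Ndufb4 through -0.36 for Ndufc2 and Ndufc1 and -0.35 for Ndufv2 up to 0.24 for Ndufs7, 0.25 for Ndufaf3 and 0.27 for Ndufa2. The 9 genes above all control mice in it were Ndufa1, Ndufa2, Ndufa7, Ndufa13, Ndufaf3, Ndufaf6, Ndufb10, Ndufs7 and Ndufv1, which come from both arms and from the assembly factors. In mouse 11708 the same ratio ran from -0.85 for Ndufb2 to -0.11 for Ndufa4l2.

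The 7 mitochondrially encoded subunits had another order of the mice. Their summed normalized value was 102%, 57.9%, 58.9% and 68.5% of the control mean in the 4 Ox1RΔSERT mice and 93.3% to 113% in the control mice, so that mouse 11613, at 95.8% for the nuclear subunit genes, was among the lowest for the mitochondrial ones. The largest difference was in mt-Nd5, a proton-pumping subunit, with 17731, 20507, 16750.0 and 16402 against 15168, 9111, 9265 and 11719 (-0.66, SE 0.22, unadjusted p = 0.0148, adjusted p = 0.316). All 4 were below the lowest control mouse. By DESeq2 with all mice, mt-Nd5 had an adjusted p of 0.0372, and the other mitochondrially encoded subunits were above 0.05. Of the 7, by edgeR, 2 were lower at an unadjusted p under 0.05 and 0 higher, and the median was -0.45.

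Other genes of the pathway are given for comparison. Of 13 complex I assembly factors not named Nduf, 2 (Tmem70 and Tmem126a) were lower at an unadjusted p under 0.05 and 0 higher, with a median of -0.23. Medians for the nuclear subunits of the other complexes were -0.22 over 4 genes of complex II, -0.32 over 9 of complex III, -0.28 over 13 of complex IV and -0.29 over 14 of complex V, with 1, 3, 2 and 3 genes lower at an unadjusted p under 0.05 and 0 higher. Summed complex III values were 96.2%, 69.8%, 96.0% and 64.4% of the control mean in the 4 Ox1RΔSERT mice, and those of the Nduf subunit genes were 99.0%, 70.5%, 95.8% and 65.6%. Of 10 regulators of mitochondrial biogenesis, 6 had a negative log2 fold change, the median was -0.13, and 2 were lower at an unadjusted p under 0.05 and 0 higher. These were Tfam, the packaging factor of mitochondrial DNA (-0.25, SE 0.09, adjusted p = 0.316), and Gabpa, a subunit of the ETS factor named above (-0.32, SE 0.11, adjusted p = 0.316). Nrf1, the factor of the NRF1 letters, went the other way without passing the test, with 8.08, 8.78, 9.15 and 8.28 against 9.63, 10.4, 9.90 and 9.71. All 4 Ox1RΔSERT mice were above the highest control mouse (0.21, SE 0.10, unadjusted p = 0.0603, adjusted p = 0.344). Ppargc1b, a coactivator of mitochondrial genes, had 3 of 4 Ox1RΔSERT mice above all controls (0.47, SE 0.26, adjusted p = 0.395). Ppargc1a, of the same list, had a negative log2 fold change (-0.52, SE 0.37, adjusted p = 0.496). It had 34.3, 112, 103 and 109 in control mice, against 56.5, 45.8, 93.0 and 54.5, all within the control range. Esrra, an ERR gene, and Yy1 had log2 fold changes of -0.25 and 0.03 (adjusted p = 0.477 and 0.923), with overlap. All 8 mitochondrial mass markers had a negative log2 fold change, with a median of -0.21. At an unadjusted p under 0.05, 3 of them were lower and 0 higher. Ucp1, the uncoupling protein, had 3731, 3806, 4894.5 and 4631 against 3817, 2513, 2903 and 2513 (-0.54, SE 0.18, unadjusted p = 0.0169, adjusted p = 0.316). Of the 10 brown adipocyte markers, to which Ucp1 belongs, 8 had a negative log2 fold change, with a range from -1.22 to 0.39. At an unadjusted p under 0.05, 4 of these markers were lower and 0 higher.

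**Figure D5:**
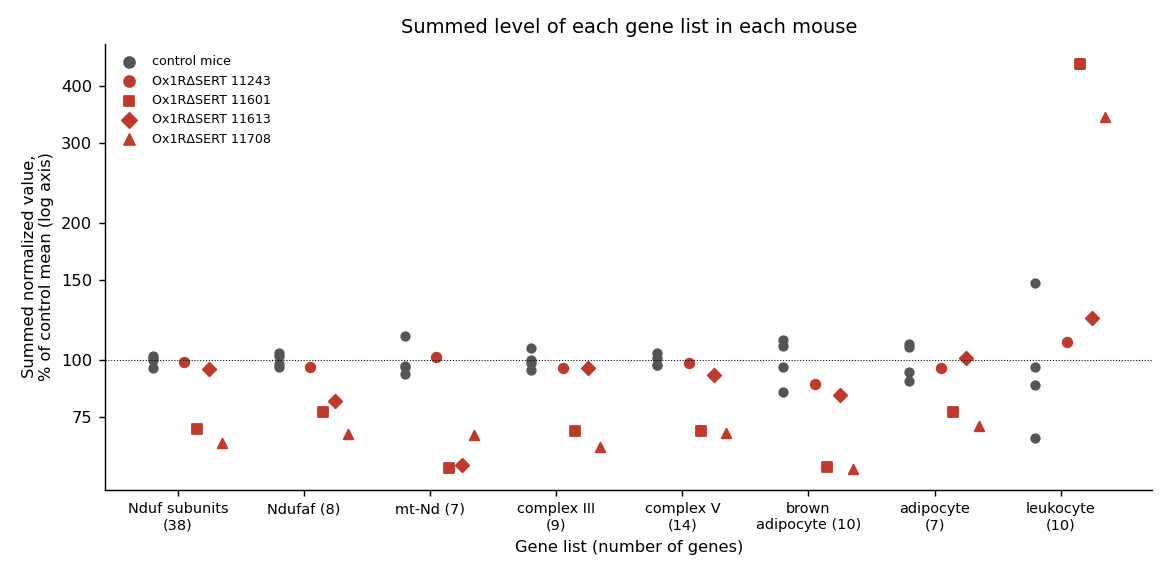
Summed normalized value of 8 gene lists in each mouse as a percentage of the mean of the 4 control mice (log axis), control mice in grey and the 4 Ox1RΔSERT mice by marker shape. The Nduf, complex III, complex V and adipocyte sums are lowest in mice 11601 and 11708, which also have the highest leukocyte sums, and the mt-Nd sum is low in mouse 11613 as well.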

How the data were processed

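BAT RNA of 8 mice was sequenced from poly-A selected, strand-marking libraries. The authors quantified genes with Salmon 0.14.1, and the labels name GRCm38.p6. They deposited estimated counts per gene and, per the file headers, TPM. Authors' group comparisons were not used.

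The estimated counts were rounded and the groups were compared with edgeR 4.0.16 (filterByExpr, TMM scaling, quasi-likelihood test, all 8 mice, no covariate), with Benjamini-Hochberg adjustment over 14489 genes. DESeq2 1.42.0 and limma 3.58.1 (trend method on log2 TPM with a pseudocount of 1 or 0.1) were alternatives, beside other scalings, filters and mice left out. Single genes were compared with the exact two-sided permutation test over 70 assignments. Limits for counts of 0 used 3 counts and cover counting error only. The scripts were tested on simulated data. Near-identical transcripts were sought with blastn 2.17.0 at 95% identity or more over at least 100 bases and 25% of the transcript. The counting is not stated to use strand, and 17 Nduf genes share exonic bases with a gene on the other strand. The labels give each mouse as a sample of its own and name no batch.

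One core subunit is not reported here by name or value. Genes named with values in each mouse were the other core subunits, Ndufb8, the Ndufaf genes, the 10 Nduf genes with the lowest p under 0.05, Ndufa4, Ndufa4l2 and the highest and lowest in level and change; Ndufab1, Ndufa3, Ndufc1, Ndufc2 and Ndufa1 were added after their values were seen. The genes, lists and tests were chosen with earlier results of these data known.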

Additional observations from a re-analysis of the deposited data

Results flagged for a closer look

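Among 66 sets of 4 mice examined (24 Nduf genes and 9 list sums in each group), 3 had 1 mouse far from the other 3 by Dixon's criterion, and chance gives about 1 in 20. Ndufb2 was 96.9 in control mouse 11563 and 104.8 to 105.6 in the other control mice, so that mouse alone set the lower end of the control range against which the Ox1RΔSERT mice did not overlap. The summed skeletal muscle markers were 2074 in control mouse 11253 against 2.90 to 10.2 in the other control mice, and 2865 in Ox1RΔSERT mouse 11708 against 12.5 to 235 in the others. Their part in the Nduf values was not tested.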

How the results depend on the processing

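No Nduf gene was called at an adjusted p of 0.05 or 0.1 by edgeR under any scaling, filter or omission run or by limma-trend on TPM. DESeq2 with all mice called 0 at 0.05 and 1 at 0.1, Ndufaf4 (adjusted p = 0.0586). The exception at 0.05 was DESeq2 without Ox1RΔSERT mouse 11243, chosen after seeing the data, which called 12 of 46, all lower (2.06% of all genes were called lower in it). At 0.1, DESeq2 called 20 of 46 without mouse 11243 and 2 without mouse 11613. It called 1 at 0.1 without control mouse 10684 and 1 without control mouse 11253. The shares of all genes called at 0.1 are not given. At 0.05 these fits called 1516 of 16057, 936 of 15546, 373 of 14105 and 247 of 15522 genes, in the order named. Of genes lower at an unadjusted p under 0.05 (14, with 4.96% of all genes), 1 was left with library size scaling (0.607% of all genes). On TPM 0 were left, with 0.242% of all genes at a pseudocount of 1 and 0.228% at 0.1. Without mice 11601 and 11708, 1 was left (1.2% of all genes). Leaving out 1 mouse gave 3 to 30, with 30 without mouse 11243 (8.50% of all genes were lower in that fit), 17 without mouse 11613 (5.97%), 3 without mouse 11601 (2.51%), mouse 11708 (2.13%) or control mouse 10684 (6.54%), 5 without control mouse 11253 (4.22%) or 11560 (2.02%) and 8 without control mouse 11563 (2.72%). Genes lower without overlap (9, with 2.81% of all genes) numbered 5 with upper-quartile scaling (2.93%) or the transcript length offset (2.45%). They numbered 2 with library size (0.483% of all genes) and 0 on TPM (0.166% with either pseudocount). With 1 mouse left out they numbered 8 to 24 (3.25% to 8.64% of all genes, with 24 and 8.64% without mouse 11243). Without mice 11601 and 11708, 8 were lower without overlap (5.49% of all genes) and 1 was higher (5.27%). Negative log2 fold changes numbered 18 on TPM and 44 to 46 with 1 mouse left out. The median of the subunit genes was 0.0066 on TPM with either pseudocount, -0.049 without mice 11601 and 11708 (-0.038 relative to all genes) and -0.41 to -0.19 with 1 mouse left out (-0.39 to -0.18 relative to all genes). That of the assembly factors was -0.024 with library size scaling and when scaled to the adipocyte markers, 0.10 on TPM with either pseudocount, -0.055 without those 2 mice (-0.044 relative to all genes) and -0.34 to -0.15 with 1 mouse left out (-0.32 to -0.15 relative to all genes).

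Relative to the median of all genes, 440 of 456 alternative values of the 24 named genes kept their sign. Without mice 11601 and 11708, 6 turned: Ndufs7 to 0.13, Ndufb8 to 0.034, Ndufv1 to 0.15, Ndufa4l2 to 0.15, Ndufaf6 to 0.087 and Ndufaf3 to 0.18. Ndufa4l2 turned to 0.0017 with at least 10 counts in every mouse and to 0.0092 on log2(TPM + 1), where Ndufaf3 turned to 0.0059. With 1 mouse left out, Ndufa4l2 ran from -0.16 to 0.086 and Ndufaf3 from -0.19 to 0.025. The causes were not tested. Apart from Ndufa4l2, the lowest count of a subunit gene in any mouse was 1896, and the part of depth was not tested. No paired analysis was possible because the labels give the mice no number shared between the groups.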
